A study of Mus musculus with 6 samples.

Results

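The clustered replication histone genes of the mouse carry the symbols Hist1h, Hist2h, Hist3h and Hist4h, followed by the letter of the histone they encode. In the left ventricle data described here, 67 symbols of that form were listed among 21989 genes, and the 44 with a value above 0 FPKM in at least 2 of 6 libraries are the genes of this account. FPKM values are fragment counts scaled to transcript length and to the mapped fragments of the library, so they are levels per length. The 44 genes comprised 35 of 54 symbols of the Hist1 cluster on chromosome 13, 7 of 10 of Hist2 on chromosome 3, 1 of 2 of Hist3 on chromosome 11, and the Hist4 gene on chromosome 6. The rule uses the name and detection, and no value of one group against the other. By family they were 5 H1, 7 H2A, 12 H2B, 8 H3 and 12 H4 genes.

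The ISO group consisted of left ventricles of male C57BL/6 mice, kept specific-pathogen-free, that received ISO under the skin at 10 mg/kg each day for 3 weeks as a model of heart failure. The saline group was given an equal volume of normal saline by the same route. Each group had 3 libraries of RNA selected with poly-T beads. The labels speak of biological repeats but name no animals, so the p-values below measure the spread between these samples. The libraries are of whole ventricle, where fewer cells of a type and less RNA per cell cannot be told apart.

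Replication histone genes supply the bulk of the linker histone H1 and of the core histones H2A, H2B, H3 and H4 during DNA synthesis. Npat drives their transcription, and their mRNAs characteristically end in a conserved stem-loop, bound by Slbp, where other mRNAs have a poly(A) tail. Some of the same genes also give polyadenylated transcripts, a form known from differentiated and non-dividing cells, and adult cardiomyocytes are largely out of the cell cycle. A poly-T selection retains polyadenylated RNA, so the values here are not measures of all histone mRNA.

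The stem-loop was looked for after the stop codon in the GENCODE M21 transcript models of the genes, on GRCm38. It was defined as a perfect stem of 6 bases opening with GG around a loop of 4 bases opening with T. It was found in 34 of the 44 genes, starting 22 to 59 bases after the stop codon, in 8 different versions. The stem-loops of 9 genes described below are shown here because they are the end of the transcript that lacks a tail. Capitals mark stem and loop, lower case the flanks, sequences are written as DNA from 5′ to 3′, and the coordinates are those of the capitals.
Hist1h1c, chr13:23739512-23739527 (+ strand): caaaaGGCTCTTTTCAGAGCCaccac
Hist2h2aa1, chr3:96246032-96246047 (+ strand): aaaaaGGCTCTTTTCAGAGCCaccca
Hist3h2ba, chr11:58949349-58949364 (+ strand): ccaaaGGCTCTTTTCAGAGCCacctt
Hist1h2bg, chr13:23571843-23571858 (+ strand): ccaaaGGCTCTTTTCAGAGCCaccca
Hist1h3d, chr13:23576244-23576259 (+ strand): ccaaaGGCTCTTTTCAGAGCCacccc
Hist1h4h, chr13:23531458-23531473 (+ strand): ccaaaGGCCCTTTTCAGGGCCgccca
Hist1h4i, chr13:22040966-22040981 (- strand): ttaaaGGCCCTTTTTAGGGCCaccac
Hist1h4m, chr13:21812129-21812144 (+ strand): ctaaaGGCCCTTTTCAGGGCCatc
Hist1h4n, chr13:21831798-21831813 (- strand): ctaaaGGCCCTTTTCAGGGCCatcca

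The H4 genes Hist1h4h, Hist1h4m and Hist1h4n had the same 16 bases, and Hist1h4i differed from them within the loop. The H1, H2A, H2B and H3 genes shown shared a single other version. A stem opening with GGCCC or GGTCC was present in H4 genes, and a stem opening with GGCTC in the other families. No stem-loop was found in the model of Hist1h2bc, which ran on for 742 bases after the stop codon, nor in that of Hist2h2be, which ran on for 2192 bases and held the poly(A) signal AATAAA in its last 50 bases. The models ran on for 100 or more bases past the stem-loop in 21 genes, of which 6 averaged at least 1 FPKM and 10 held a poly(A) hexamer in the last 50 bases. They ended within 100 bases of the stem-loop in 13 genes, of which 5 averaged at least 1 FPKM and 1 held such a hexamer. A further 5 models held no stem-loop after the stop codon, and 5 ended at or near that codon. The search describes the letters of the models and not where the sequenced transcripts ended.

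Promoters were compared because members of the H4 family lay on opposite sides in the comparison below. The part of promoter sequence in those values was not tested. The 150 bases before the annotated start are shown for 5 genes, from RefSeq on GRCm38.p6, written 5′ to 3′ along the gene. Capitals mark matches to TATAAA, the letters of a TATA box, and to GGTCCG, the core of the H4 site II element. They also mark CCAAT, bound by NF-Y, and AAACACA, the H1 box. Matches were taken at any position, so a TATAAA is not shown to be a working TATA box. In Hist1h4n, Hist1h4m and Hist1h4i it lay further from the start than the site II core.
Hist1h4n, chr13:21832198-21832347 (- strand): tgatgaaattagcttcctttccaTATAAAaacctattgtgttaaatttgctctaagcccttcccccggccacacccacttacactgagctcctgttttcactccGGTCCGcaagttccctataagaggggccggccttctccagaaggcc
Hist1h4m, chr13:21811596-21811745 (+ strand): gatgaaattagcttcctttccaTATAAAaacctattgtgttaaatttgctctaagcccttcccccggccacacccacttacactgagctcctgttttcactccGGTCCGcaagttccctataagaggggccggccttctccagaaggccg
Hist1h4i, chr13:22041363-22041512 (- strand): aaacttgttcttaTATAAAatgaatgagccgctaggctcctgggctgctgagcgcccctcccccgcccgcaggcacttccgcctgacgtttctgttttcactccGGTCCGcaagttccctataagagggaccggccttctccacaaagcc
Hist1h4h, chr13:23530894-23531043 (+ strand): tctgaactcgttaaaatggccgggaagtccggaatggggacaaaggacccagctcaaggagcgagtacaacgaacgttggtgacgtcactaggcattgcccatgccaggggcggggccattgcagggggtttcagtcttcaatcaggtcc
Hist1h1c, chr13:23738657-23738806 (+ strand): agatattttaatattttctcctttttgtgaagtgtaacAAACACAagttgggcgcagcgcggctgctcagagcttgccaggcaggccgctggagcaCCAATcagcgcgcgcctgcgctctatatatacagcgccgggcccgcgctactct

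Hist1h4n and Hist1h4m shared a run of 149 of these 150 bases. Hist1h4n and Hist1h4i shared at most 38 bases in a row, around the site II core, and Hist1h4n and Hist1h4h shared at most 6. In Hist1h4h the site II core lay across the annotated start, so the stretch printed shows its first bases in lower case. Over 300 bases (250 before the start and 50 after it, either strand), RefSeq promoters were matched for 41 of the 44 genes. Each of these genes counted once, if any of its promoters held the letters. The share of all promoters was counted per promoter, so the units differ. GGTCCG was found in 11 of 12 H4 promoters, 1 of 10 H2B and 1 of 7 H3 promoters, in none of the H1 and H2A promoters, and in 8.25% of all 32851 promoters. AAACACA was found in 5 of 5 H1 promoters and in no other member promoter, against 7.18% of all promoters. The octamer ATTTGCAT, bound by Oct-1, was found in 3 of 7 H2A and 3 of 10 H2B promoters, in no H1, H3 or H4 promoter, and in 1.74% of all. CCAAT was found in every H1, H2A, H2B and H3 promoter matched and in 3 of 12 H4 promoters, against 37.4% of all. TATAAA was found in 3 of 5 H1, 5 of 7 H2A, 5 of 10 H2B, 2 of 7 H3 and 8 of 12 H4 promoters, against 13.6% of all.

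Library totals, worked back from the smallest steps between FPKM values, were 7378782, 5154283 and 5614336 reads in ISO 1 to 3, and 9862363, 6307039 and 2776152 reads in saline 1 to 3. Saline 3 had the smallest total and stood apart from the other libraries. It was the lowest of the 6 for 52.8% and the highest for 22.4% of the 12269 genes with a mean of at least 1 FPKM. Results below that rest on it are given with and without it.

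The clustered histone genes were detected unevenly. In ISO 1 to 3, 28, 33 and 35 of the 44 genes were above 0, and in saline 1 to 3, 36, 30 and 13. Saline 3 had the fewest detected genes, and the other 5 libraries did not separate by group. For 31 of the 44 genes saline 3 was at 0, while for 8 genes it was the highest of the 6 libraries. Genes above 0 in exactly 2 libraries, just inside the detection rule, were Hist1h1b, Hist1h1t, Hist1h2bf, Hist1h2bh, Hist1h3e, Hist1h3g, Hist1h4f, Hist2h3b and Hist4h4. Just outside it, above 0 in exactly 1 library, were Hist1h2ag, Hist1h2ah, Hist1h2ai, Hist1h2ak, Hist1h2bl, Hist1h2bp, Hist1h3b, Hist1h3h and Hist2h4. Hist2h4 had 3.71 FPKM from 8 reads in ISO 3 and 0 elsewhere. The remaining 14 symbols were listed at 0 in all 6 libraries.

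**Figure D1:**
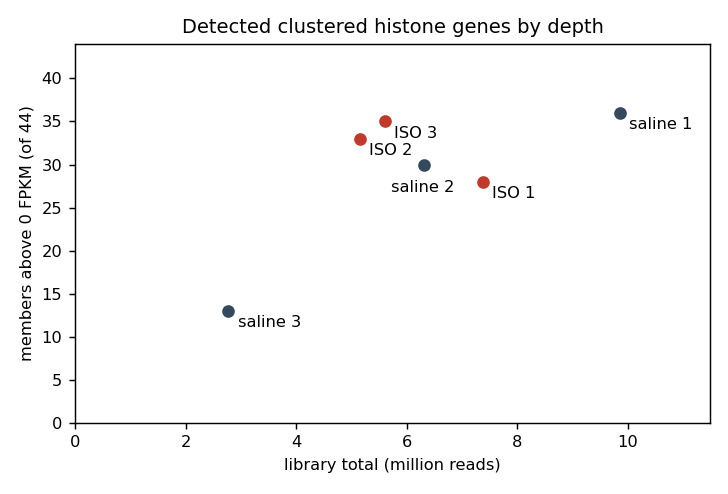
Number of the 44 clustered histone genes above 0 FPKM (y axis) against the total reads of the library (x axis), 1 point per library, ISO in red and saline in dark blue. Saline 3, with 13 genes and the smallest total, lies apart from the 5 libraries with 28 to 36 genes.

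Summed over the 44 genes, the level was 223, 243 and 235 FPKM in ISO 1 to 3 and 208, 155 and 285 FPKM in saline 1 to 3. The ISO libraries lay close together, and the saline libraries lay on both sides of them. The sum averaged 234 ± 9.86 FPKM in ISO and 216 ± 65.3 FPKM in saline (SD, n = 3 each), a difference smaller than the spread between saline libraries. The ratio of the group medians, ISO over saline, was 1.13, and it was 0.954 without saline 2 and 1.29 without saline 3. As RPM, reads normalised to the library total without regard to length, these genes took 173, 182 and 176 RPM in ISO 1 to 3 and 157, 117 and 182 RPM in saline 1 to 3. Histones encoded outside the clusters and made independently of replication, such as H3.3 and H2A.Z, summed to 571, 617 and 662 FPKM in ISO and 514, 427 and 568 FPKM in saline. The clustered genes made up 28.1%, 28.2% and 26.2% of all histone FPKM in ISO and 28.8%, 26.7% and 33.4% in saline, with overlapping groups.

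H2B was the family with the highest sum in every library. H2B genes, which encode a core histone, summed to 127, 148 and 143 FPKM in ISO and 148, 92.8 and 126 FPKM in saline. The H1 genes, which encode the linker histones between nucleosomes, summed to 55.1, 46.2 and 31.8 FPKM in ISO and 18.2, 22.6 and 55.6 FPKM in saline. H4 genes summed to 30.6, 32.7 and 42.4 FPKM in ISO and 29.2, 29.3 and 96.3 FPKM in saline. In the H1 and H4 families saline 3 was the highest library, and both families overlapped between the groups. H2A genes summed to 8.0, 13.4 and 15.0 FPKM in ISO and 5.93, 7.38 and 7.37 FPKM in saline. Every ISO sum was above every saline sum, by a narrow margin (8.0 against 7.38 FPKM). The sums rested on 112 reads over the ISO libraries and 65 over the saline libraries. In saline 3 the reads came from Hist1h2af (8 reads) and Hist2h2aa2 (2 reads) alone. Median-of-ratios factors were 1.08 for ISO 1 and 0.787 for saline 3, and dividing by them puts saline 3 above ISO 1. The H2A sum was not tested. H3 genes summed to 2.04, 2.01 and 2.70 FPKM in ISO and 6.88, 3.13 and 0 FPKM in saline, on 22 reads over the ISO libraries and 49 over the saline libraries.

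**Figure D2:**
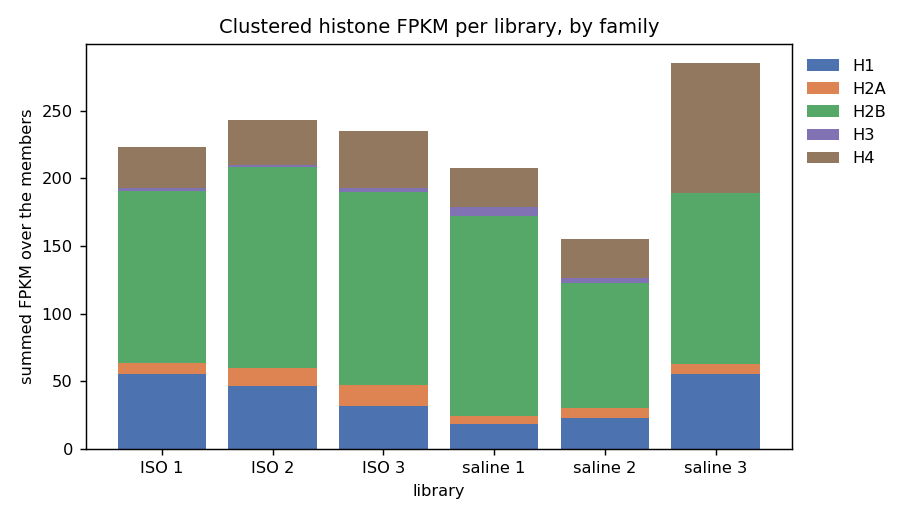
Summed FPKM of the 44 clustered histone genes in each library (y axis), stacked by histone family, with the 3 ISO libraries left of the 3 saline libraries. H2B makes up the largest part of every bar, between 92.8 and 148 FPKM, and the H4 part is largest in saline 3, at 96.3 FPKM.

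Hist1h2bc, Hist1h1c and Hist1h4h together held 80.7%, 78.0% and 72.9% of the summed FPKM in ISO 1 to 3 and 78.4%, 75.0% and 81.2% in saline 1 to 3. Hist1h2bc (chr13:23684199-23692480, RefSeq symbol H2bc4), an H2B gene, was the most abundant, at 113.8, 129.1 and 123.8 FPKM in ISO and 123.3, 75.8 and 113.1 FPKM in saline. Saline 2 was low, and the groups overlapped. The means were 122 ± 7.76 FPKM in ISO and 104 ± 25 FPKM in saline (SD, n = 3 each), with a log2 fold change of 0.26 (SE 0.25, limma adjusted p = 0.713). Each of these values rested on 243 to 941 reads. Log2 fold changes throughout are ISO over saline on log2(FPKM + 1), which understates the change of low genes.

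Hist1h1c (chr13:23738807-23739531, H1f2), which encodes the linker histone H1.2, was the second most abundant. It was at 54.6, 44.7 and 30.5 FPKM in ISO and 17.9, 21.0 and 48.7 FPKM in saline. All ISO libraries were above saline 1 and 2, and saline 3 lay above ISO 2 and ISO 3. The means were 43.2 ± 12.1 FPKM in ISO and 29.2 ± 17.0 FPKM in saline (SD, n = 3 each), with a log2 fold change of 0.65 (SE 0.42, limma adjusted p = 0.699). Without saline 3 the log2 fold change was 1.08, which did not pass the test. The other H1 genes were low: Hist1h1d, for H1.3, was at 0.17, 0.25 and 0.23 FPKM in ISO and 0.13, 0.41 and 4.18 FPKM in saline. Hist1h1e, for H1.4, was at 0.35, 1.24 and 0.68 FPKM in ISO and 0, 0.61 and 2.76 FPKM in saline. For both, saline 3 was the highest library. The testis-expressed H1 gene Hist1h1t and Hist1h1b, for H1.5, were above 0 in 2 libraries each.

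Hist1h4h (chr13:23531044-23531478, H4c8) was the most abundant H4 gene, at 11.8, 15.6 and 17.2 FPKM in ISO and 21.7, 19.7 and 69.6 FPKM in saline. Every ISO library was below every saline library, and saline 3 was far above the other two saline libraries. The means were 14.9 ± 2.75 FPKM in ISO and 37.0 ± 28.2 FPKM in saline (SD, n = 3 each), with a log2 fold change of -1.03 (SE 0.48, limma unadjusted p = 0.0683, adjusted p = 0.699). Without saline 3 the log2 fold change was -0.46. The values rested on 38, 35 and 42 reads in ISO and 93, 54 and 84 in saline, and the counting intervals of ISO 3 and saline 2, 12.4 to 23.2 and 14.8 to 25.7 FPKM, overlapped.

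Hist1h4n (chr13:21831792-21832197, H4c18) was at 4.44, 3.71 and 5.84 FPKM in ISO and 0.554, 0 and 0 FPKM in saline. The reads were 12, 7 and 12 in ISO and 2, 0 and 0 in saline, so the groups did not overlap. A count of 0 allowed up to 3 reads, which is 1.30 FPKM in saline 2 and 2.95 FPKM in saline 3, both under the lowest ISO value. That value has its own counting error: the counting intervals of ISO 2 and saline 3, 1.49 to 7.65 and 0 to 3.63 FPKM, overlapped. The floor of 3 reads covers counting error only. It does not cover the assignment of reads between copies: Hist1h4m, with the same coding sequence, had 28 reads in saline 3. The means were 4.66 ± 1.08 FPKM in ISO and 0.185 ± 0.320 FPKM in saline (SD, n = 3 each). The log2 fold change was 2.27 (SE 0.32, limma unadjusted p = 0.000187), and it did not pass after adjustment over all genes (adjusted p = 0.699). As a rate per library total, the summed reads were 16.2 times as frequent in ISO, with a 95% interval of 4.12 to 140 that covers counting error only.

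Hist1h4i (chr13:22040960-22041362, H4c9) was at 7.06, 4.33 and 10.6 FPKM in ISO and 2.01, 0.787 and 0 FPKM in saline. Every ISO library was above every saline library, on 21, 9 and 24 reads in ISO and 8, 2 and 0 in saline. The counting intervals of ISO 2 and saline 1, 1.98 to 8.23 and 0.869 to 3.97 FPKM, overlapped. The means were 7.33 ± 3.15 FPKM in ISO and 0.933 ± 1.01 FPKM in saline (SD, n = 3 each), with a log2 fold change of 2.18 (SE 0.48, limma unadjusted p = 0.00258, adjusted p = 0.699). The rate ratio of the summed reads was 5.64 (95% counting interval 2.84 to 12.4). Without saline 3, where 0 reads allowed up to 2.68 FPKM, the log2 fold change was 1.77.

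Hist1h4m (chr13:21811746-21812150, H4c17) was at 3.01, 4.79 and 3.52 FPKM in ISO and 2.25, 2.74 and 24.9 FPKM in saline. Saline 3 was the highest library and saline 1 and 2 the lowest, so the groups overlapped. The means were 3.77 ± 0.916 FPKM in ISO and 9.97 ± 12.9 FPKM in saline (SD, n = 3 each), with a log2 fold change of -0.53 (SE 0.76, limma adjusted p = 0.785), and without saline 3 it was 0.44. The coding sequences of Hist1h4m and Hist1h4n were identical over their 312 bases, and their transcript models shared a run of 366 bases. Reads from such a stretch cannot be assigned to either gene by sequence alone, and the sources used here do not say how the authors' counting treated them. The reads of both genes together were 21, 17 and 20 in ISO and 11, 7 and 28 in saline, or 2.85, 3.30 and 3.56 RPM in ISO and 1.12, 1.11 and 10.1 RPM in saline. Taken as a pair, the ISO libraries were above saline 1 and 2 and below saline 3, so the separation of the groups in Hist1h4n alone was not a feature of the pair.

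**Figure D3:**
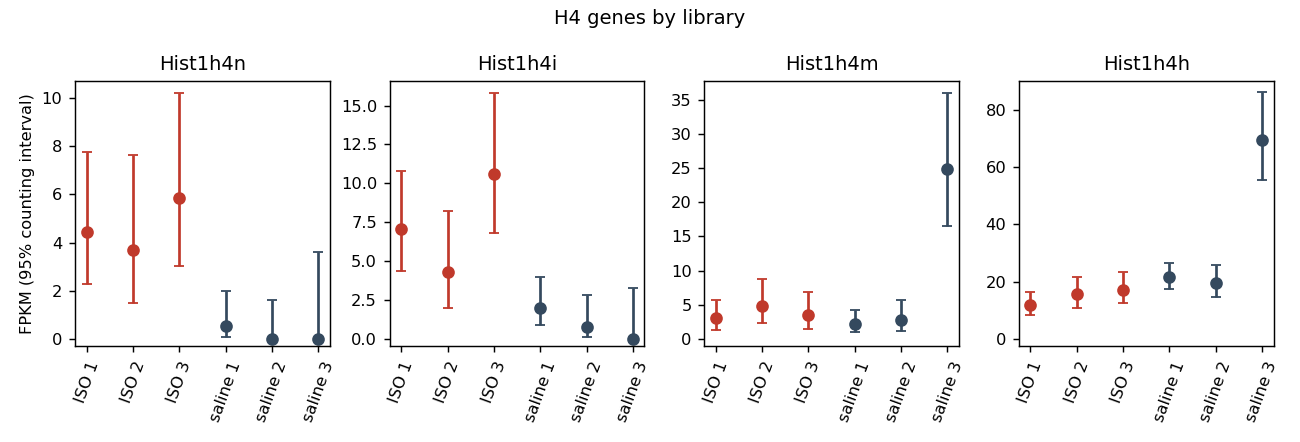
FPKM of 4 H4 genes in each library (y axes, a separate scale per gene), ISO in red left of saline in dark blue, with bars for the 95% counting interval of each library. Hist1h4n and Hist1h4i are higher in all 3 ISO libraries, Hist1h4h is lower, and saline 3 is the highest library for Hist1h4m, at 24.9 FPKM, and Hist1h4h, at 69.6 FPKM.

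Of the remaining 8 H4 genes, none averaged 1 FPKM. Hist1h4k was at 1.33, 3.32 and 0 FPKM in ISO and 0.25, 0 and 0 FPKM in saline, and Hist1h4c at 2.53, 0.52 and 0.47 FPKM in ISO and 0, 2.11 and 0 FPKM in saline. Hist1h4f was at 0 in every ISO library and at 0.85, 0.89 and 0 FPKM in saline.

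Among H2B genes, Hist3h2ba (chr11:58948911-58949372, H2bu2), of the small Hist3 cluster, was at 0, 0 and 1.54 FPKM in ISO and 3.07, 2.06 and 10.9 FPKM in saline. Every ISO library was below every saline library, on 0, 0 and 4 reads in ISO and 14, 6 and 14 in saline. The counting intervals of ISO 3 and saline 2, 0.420 to 3.95 and 0.756 to 4.48 FPKM, overlapped. A count of 0 allowed up to 0.880 FPKM in ISO 1 and 1.26 FPKM in ISO 2. The means were 0.514 ± 0.890 FPKM in ISO and 5.35 ± 4.85 FPKM in saline (SD, n = 3 each), with a log2 fold change of -1.96 (SE 0.61, limma unadjusted p = 0.0147, adjusted p = 0.699). The rate ratio of the summed reads was 0.123 (95% counting interval 0.0317 to 0.344), and the log2 fold change without saline 3 was -1.37.

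Hist2h2be (chr3:96221072-96223738, H2bc21), the H2B gene with the long model, was at 7.42, 6.55 and 7.75 FPKM in ISO and 6.84, 6.42 and 1.08 FPKM in saline. Saline 3 was low, on 8 reads, and the other 5 libraries lay between 6.42 and 7.75 FPKM. The log2 fold change was 0.73 (SE 0.52, limma adjusted p = 0.699) with all libraries and 0.11 without saline 3. Hist1h2bg (chr13:23571400-23571863, H2bc8) was at 1.75, 6.27 and 6.53 FPKM in ISO and 8.09, 3.42 and 0 FPKM in saline, with a log2 fold change of 0.64 (SE 0.82), and without saline 3 it was -0.25. It shared a run of 305 bases with Hist1h2bc, whose level was far higher. Hist1h2be was at 1.89, 0.541 and 1.99 FPKM in ISO and 1.25, 0.884 and 0 FPKM in saline (log2 fold change 0.55, SE 0.45, and 0.20 without saline 3), and its model overlaps that of Hist1h1e on the same strand. Hist1h2bn and Hist1h2bb had log2 fold changes of -0.05 (SE 0.52) and -0.12 (SE 0.55), and of -0.58 and -0.59 without saline 3. The identical genes Hist1h2bq and Hist1h2br together had 5, 10 and 3 reads in ISO and 5, 0 and 4 in saline.

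Among H2A genes, Hist2h2aa1 (chr3:96245497-96246052, H2ac18) was at 0.731, 6.28 and 8.65 FPKM in ISO and 2.55, 2.00 and 0 FPKM in saline. ISO 2 and 3 were high, and ISO 1 lay among the saline libraries. The log2 fold change was 1.17 (SE 0.76, limma adjusted p = 0.699), 1.93 without ISO 1 and 0.60 without saline 3. Its coding sequence was identical to that of Hist2h2aa2 over 393 bases, and the pair had 3, 24 and 30 reads in ISO and 19, 11 and 2 in saline. Hist1h2af (chr13:23533875-23534378, H2ac10) was at 5.21, 1.24 and 3.04 FPKM in ISO and 1.73, 3.73 and 6.16 FPKM in saline, with a log2 fold change of -0.24 (SE 0.50) that was 0.09 without saline 3. The other 5 H2A genes averaged under 1 FPKM.

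Among H3 genes, Hist1h3d (chr13:23575763-23576266, H3c4) was the only H3 gene that averaged at least 1 FPKM, at 1.34, 0.385 and 0.353 FPKM in ISO and 3.62, 1.89 and 0 FPKM in saline. Saline 1 and 2 had the highest values, and the groups overlapped. The 0 reads of saline 3 allowed up to 2.14 FPKM, so its place among the libraries is not determined. The log2 fold change was -0.53 (SE 0.59, limma adjusted p = 0.738), on 5, 1 and 1 reads in ISO and 18, 6 and 0 in saline, and it was -1.16 without saline 3. The other 7 H3 genes lay at or below 1.41 FPKM in every library.

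**Figure D4:**
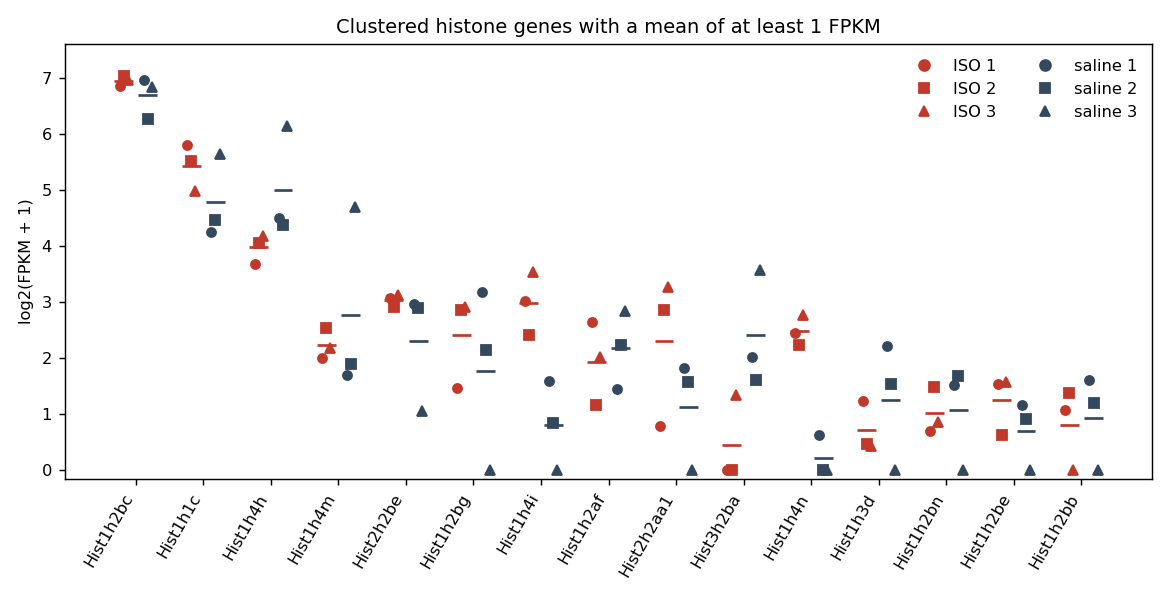
Levels on the log2(FPKM + 1) scale (y axis) of the 15 clustered histone genes that averaged at least 1 FPKM, ordered by mean, with a symbol per library and a line at the mean of each group, ISO (red) left of saline (dark blue). Hist1h4i and Hist1h4n are higher in all ISO libraries, Hist1h4h and Hist3h2ba lower, and the other 11 genes overlap.

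Across the 15 genes that averaged at least 1 FPKM, 0 passed limma's test at an adjusted p under 0.05, as for all 12269 genes tested (0%, smallest adjusted p 0.699). Without adjustment, limma's p was under 0.05 for 2 genes higher in ISO, Hist1h4n and Hist1h4i (background 4.92% of all genes tested), and for 1 lower, Hist3h2ba (background 1.39%), with a background of 6.31% in either direction. The groups did not overlap for 2 genes higher in ISO (background 12.8%) and 2 lower (background 3.72%), the lower ones being Hist1h4h and Hist3h2ba, with a background of 16.5% in either direction. The log2 fold change was above 0 for 8 of the 15, where 68.1% of all genes tested had one above 0. Their median was 0.26, against 0.20 for all genes tested, and the median over all genes was 0.01 after median-of-ratios scaling. The filter bears on these counts: 3 genes reached a mean of 1 FPKM through ISO alone and 3 through saline alone, so such genes had to differ. They include Hist1h4n, Hist1h4i and Hist3h2ba, the 3 genes with an unadjusted p under 0.05, whose count is therefore no support. Of the 44 genes, 28 had fewer than 20 reads over the 6 libraries together. The other 29 genes were too low for the test.

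**Figure D5:**
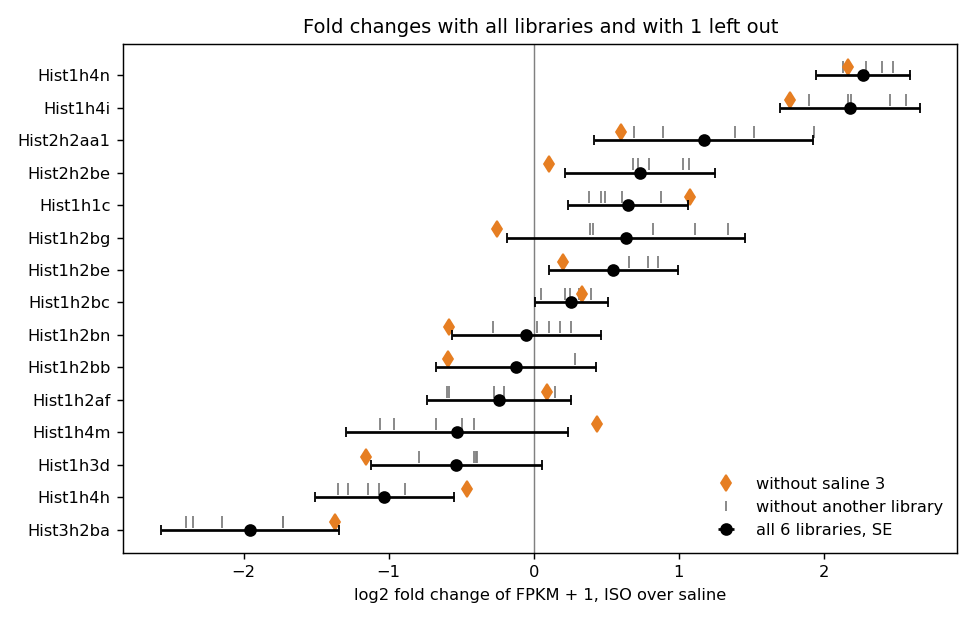
Log2 fold change of FPKM + 1, ISO over saline (x axis), of the 15 tested clustered histone genes, with the value from all 6 libraries and its SE (black), without saline 3 (orange) and without each other library (grey ticks). Hist1h4n and Hist1h4i stay above 0 and Hist3h2ba and Hist1h4h below it, and Hist1h2af, Hist1h2bg and Hist1h4m are on the other side of 0 without saline 3.

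With limma's sample quality weights, which gave saline 3 a weight of 0.0772, ISO 3 one of 0.449, saline 1 one of 3.08 and ISO 2 one of 5.50, 5 of the 15 genes passed, where 6.26% of all genes tested did. Hist1h4n (log2 fold change 1.85), Hist1h4i (1.24) and Hist1h1c (1.22) were higher in ISO, and Hist1h3d (-1.37) and Hist3h2ba (-1.87) lower. All but Hist1h1c had reached the mean of 1 FPKM only through the group where they were higher, so the count is partly set by the filter. With saline 3 left out, none of the 5 passed limma's test, with an adjusted p of 0.312 to 0.414. Over all alternatives the adjusted p of Hist1h4n ran between 0.0150 and 0.875 and that of Hist1h4i between 0.0417 and 0.875. It ran between 0.0165 and 0.875 for Hist1h1c and for Hist3h2ba, and between 0.0369 and 0.916 for Hist1h3d.

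Sequence likeness limits the single-gene values. A run of at least 100 bases was shared with another symbol of the family by 38 of the 44 genes. Median coding identity between member genes was 91.1% in H2A, 94.8% in H2B, 96.8% in H3 and 94.7% in H4. The models of 12 genes overlapped another annotated gene, and the sources used here do not say whether counting used the strand.

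The genes around histone supply did not pass the test either, with limma calling 0 in each list below. The counts of these lists stand beside the 68.1% of all genes tested with a log2 fold change above 0, the median of 0.20 over all genes and the 4.92% that were higher with an unadjusted p under 0.05. Of 18 tested genes for histone mRNA transcription and processing, 15 were higher in ISO and 3 lower (median log2 fold change 0.22), and 0 had an unadjusted p under 0.05. Slbp, the stem-loop binding protein, was at 9.39, 10.7 and 16.5 FPKM in ISO and 10.2, 8.24 and 0.189 FPKM in saline, lowest in saline 3. Npat, the transcriptional coactivator of these genes, was at 1.86, 1.63 and 3.13 FPKM in ISO and 2.32, 2.39 and 0.384 FPKM in saline. Zcchc6, a uridylyl transferase that marks RNA for decay, was at 16.3, 16.8 and 18.2 FPKM in ISO and 10.7, 14.2 and 4.66 FPKM in saline, without overlap.

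Of 17 tested histone chaperone and assembly genes, 13 were higher in ISO and 4 lower (median 0.21), with Ssrp1, a subunit of the FACT chaperone, at 30.0, 28.7 and 20.7 FPKM in ISO and 19.6, 21.5 and 8.15 FPKM in saline. Of 36 S phase genes, 28 were higher and 8 lower (median 0.30), with Pcna, the sliding clamp of DNA polymerase, at 19.0, 43.0 and 47.2 FPKM in ISO and 27.3, 21.8 and 24.0 FPKM in saline. Fen1, a flap endonuclease, was at 2.43, 4.29 and 4.24 FPKM in ISO and 2.29, 1.79 and 0.902 FPKM in saline (limma unadjusted p = 0.0443, adjusted p = 0.699). Of 12 mitosis genes, 10 were higher and 2 lower (median 0.51), and 3 had an unadjusted p under 0.05. Top2a, Kif23, Nusap1 and Anln reached a mean of 1 FPKM through ISO alone, so their ISO mean had to be higher. None of them was among the 3. Mki67, a nuclear protein of cycling cells, had levels of 2.55, 8.87 and 9.01 FPKM in ISO and 1.07, 2.12 and 1.14 FPKM in saline, without overlap, and did not pass (limma adjusted p = 0.699).

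Of 11 tested histones made outside replication, 7 were higher and 4 lower (median 0.25). H3f3a, which encodes H3.3, was at 213, 218 and 240 FPKM in ISO and 173, 130 and 140 FPKM in saline, without overlap (log2 fold change 0.60, SE 0.22, limma unadjusted p = 0.0271, adjusted p = 0.699). H3f3b, which encodes the same protein, was at 122, 158 and 158 FPKM in ISO and 123, 84.7 and 124 FPKM in saline. H2afz, for H2A.Z, was at 37.1, 52.6 and 52.0 FPKM in ISO and 31.5, 26.1 and 133 FPKM in saline. As with Hist1h4h and Hist1h4m, saline 3 was its highest library.

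None of the cell type markers passed the test, and their levels are given beside the histone values. All 8 cardiomyocyte markers were lower in ISO, with a summed level between 12005 and 20428 FPKM in ISO, against 27791 to 38660 in saline. Of the fibroblast markers 6 of 7 were higher in ISO, with sums of 1225 to 1281 FPKM in the ISO libraries and 591 to 881 in the saline libraries, and 7 of 7 macrophage markers were higher, with sums of 448 to 660 FPKM in the ISO libraries and 228 to 414 in the saline libraries. No marker of these 3 lists was at 0 in any library. Of the erythroid markers, genes of the red cell lineage, 8 of 8 tested were higher, with sums of 14094 to 29596 FPKM in the ISO libraries and 3254 to 6705 in the saline libraries. Platelet markers were higher for 5 of 5 tested (28.0 to 32.5 FPKM in ISO, 12.3 to 32.7 FPKM in saline) and endothelial markers for 6 of 6 (409 to 477 FPKM in ISO, 126 to 473 FPKM in saline). Lymphocyte markers were higher for 4 of 5 (12.0 to 60.2 FPKM in ISO, 14.3 to 23.9 FPKM in saline), and neutrophil markers for 3 of 4 (39.4 to 146 FPKM in ISO, 38.6 to 104 FPKM in saline), with Ly6g at 0 in all libraries. The part of these cell types in the histone values was not tested.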

How the data were processed

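Poly(A)-selected RNA of 6 left ventricle libraries (3 ISO, 3 saline) was analysed from 1 deposited table of FPKM values, the only unit used. Per the submitters' processing notes, the genome was GRCm38 and the tools named include the aligner HISAT2 2.1.0, Cufflinks 2.2.1, HTSeq 0.7.2, DESeq, fastp 0.20.0 and CASAVA 1.8. The sources used here do not say which of them made the table, with which settings, or from which annotation release. Columns were matched to samples by library name. FPKM is already scaled to library total and gene length by the authors, so a few abundant genes can shift all others.

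Values were tested as log2(FPKM + 1) with limma 3.58.1 (R 4.3.3) with a mean-variance trend and Benjamini-Hochberg adjustment over the 12269 genes with a mean of at least 1 FPKM, and called at an adjusted p under 0.05. The fit had the group as its only term. Reads were worked back from the FPKM steps of each gene and a length. The length was that of RefSeq for 473 genes and of a GENCODE transcript for 912. For 15627 genes it was the smallest length that made the reads whole. Reads of those genes are the fewest possible, among them Hist1h4n, Hist1h2bc, Hist1h2af and Hist1h2be. All 16816 genes examined (100%) came out whole within 0.0001, which that choice of length favours, so it is no check. For the library total, 299 of 396 single-exon genes gave the same value. Counting intervals are exact Poisson at 95% and cover counting error only, since reads without molecular identifiers are not independent molecules. A count of 0 is taken to allow 3 reads. Gene positions are from RefSeq (GRCm38.p6), where all 67 symbols matched.

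Genes given with values in every library are the 10 with the highest mean, the 8 higher and the 4 lower in ISO with the smallest unadjusted p among those tested; of the other lists, up to 3 genes with the smallest p were eligible, and Slbp, Npat, Pcna, Mki67, H3f3a, H3f3b and H2afz were named whatever their p. Further low histone genes were picked as examples after their values were seen. The members and lists were chosen with earlier results of these data known. Alternatives were other pseudocounts, filters and scalings, quality weights, limma-voom on recovered reads, a replicate block and leaving out each library.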

Additional observations from a re-analysis of the deposited data

How the results depend on the processing

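With sample quality weights limma called 768 genes and 5 clustered histone genes. Leaving out 1 library gave 0 to 16 genes, the 16 being without ISO 1, and 0 to 0 histone genes. All other alternatives called 0 of either. The number of histone genes higher in ISO was 8 of 15 with all libraries and 7 with quality weights. It was 9 to 10 when 1 library was left out, among the genes that then averaged at least 1 FPKM and so not over the same 15, and 25 of 44 when all genes above 0 in at least 2 libraries were tested. The same replicate numbers did not pair the samples: the deviations of same-numbered libraries correlated at 0.0129, -0.148 and -0.0255, and 1 of 6 libraries correlated best with its own number. A fit with the replicate block called 0 genes and 0 histone genes, and 8 were higher.

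Over the alternatives, single-gene fold changes kept direction and side of the threshold 197 times, turned sign 15 times and newly passed 5 times. Sign turned with quality weights for Hist1h2be (-0.21), Hist1h2bg (-0.30) and Hist1h4m (0.59). It turned without saline 3 for Hist1h2af (0.09), Hist1h2bg (-0.25) and Hist1h4m (0.44). Hist1h2af was 0.15 without ISO 2 and 0.068 with limma-voom. Hist1h2bn was 0.50 and 0.0318 with pseudocounts of 0.1 and 0.5, 0.11 and 0.03 without ISO 1 and ISO 3, and 0.18 and 0.26 without saline 1 and saline 2. Hist1h2bb was tested with 1 library left out only without ISO 3 and without saline 3, at 0.283 and -0.593. Leaving out each library in turn gave ranges of -0.601 to 0.149 for Hist1h2af, -0.252 to 1.34 for Hist1h2bg, -0.585 to 0.256 for Hist1h2bn and -1.06 to 0.435 for Hist1h4m. The cause was not tested. The ratio of summed FPKM was 1.01 with median-of-ratios scaling, 1.16 with a common sum and 1.32 without Hist1h2bc. Reads were few for most of these genes: 28 of 44 genes have under 20 reads over the 6 libraries together. Saline 3 has the smallest library total, and the part of depth in its values was not tested.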
